A study of Mus musculus with 3 samples.

Results

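The cells described here are naive-like CD4 T cells of the mouse spleen, 3450 of the 32509 cells that passed the base filter. They were chosen from raw counts of unique molecular identifiers (UMIs, each one captured RNA molecule). A cell passed the base filter with at least 500 UMIs, at least 200 genes and under 10% mitochondrial UMIs. A member then held at least 1 UMI of the CD3 genes Cd3d, Cd3e and Cd3g together, at least 1 of Cd4 and at least 1 of Igfbp4 or Lef1. It held none of 7 genes: Foxp3 (regulatory T cells), Cd8a and Cd8b1 (CD8 T cells), Pdcd1 (follicular helper and exhausted T cells), Zbtb16 (innate-like T cells), and Cd79a and Cd79b (B cells).

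Single spleen cells of WT mice were sequenced on the 10x Genomics platform, and each of the 3 groups is 1 library. The Control library came from animals that were not irradiated, IR from animals given 8.5 Gy with what was read as a vehicle (the label says "colvent control"), and IR_HSO from animals given 8.5 Gy with HSO. The title of the series gives HSO as hemp seed oil and protection of splenic lymphocytes from radiation as the subject. The labels used here give neither the time after irradiation, nor the dose or route of HSO, nor the number of mice per library.

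Naive CD4 T cells leave the thymus, have not yet met their antigen, and circulate between blood, spleen and lymph nodes. They enter lymph nodes with the help of the chemokine receptor Ccr7, leave by S1pr1, and depend on interleukin-7 and on contact with self peptides to survive. Lef1 and Tcf7 are transcription factors of the naive state, and Igfbp4 is a gene often used to mark naive CD4 T cells. Ionizing radiation breaks DNA, the damage stabilizes the transcription factor p53, and p53 switches on genes that arrest the cell cycle, repair DNA or start apoptosis. Resting lymphocytes are among the most radiation-sensitive cells of the body.

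Each group has 1 library. No difference below has a replicate check or a test, every comparison is between libraries, and the 95% intervals cover counting error only. The libraries held 45636807 to 50836313 UMIs. Between 34 and 54 barcodes occurred in both libraries of a pair, and at most 1 barcode of a pair was a member in both. Median UMIs per member were 5136 in Control, 3741 in IR and 3601 in IR_HSO. Before filtering, 16.5% of IR_HSO barcodes were over the mitochondrial limit, against 3.75% in Control and 4.76% in IR, so the IR_HSO library stands apart in this measure and its part in the differences in share and expression was not tested. Within the members mitochondrial genes took 2.16%, 2.24% and 3.06% of the members' UMIs and ribosomal RNA genes 3.06%, 1.06% and 4.75%, so the libraries also differ in depth and RNA composition. Pancreatic enzyme genes, which T cells do not make, took 0.000114%, 0.119% and 0.0717%. Levels below are summed over the members of a library and given as CPM, the UMIs of a gene per 1000000 UMIs.

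The label was checked against markers that the rule did not use. Ccr7 stood at 191, 194 and 189 CPM in Control, IR and IR_HSO, against 82.1, 86.9 and 106 in CD4 T cells chosen the same way but with no Igfbp4 or Lef1 UMI. The marker Il6ra, the interleukin-6 receptor, stood at 178, 201 and 260 CPM and the marker S1pr1 at 408, 327 and 382. Both were higher in the members than in the other CD4 cells of the same library, where Il6ra stood at 132, 110 and 130 and S1pr1 at 266, 148 and 196. The naive label therefore holds on these 3 genes in each library. The memory gene S100a4 stood at 29.7, 53.9 and 49.1 CPM in the members and at 362, 190 and 133 in the other CD4 cells. In Control these other CD4 cells also carried a list of B cell genes at 7659 CPM, against 1083 in the members.

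The rule's own genes are given as a description only. Lef1 was found in 98.2%, 90.0% and 87.9% of members in Control, IR and IR_HSO, and Igfbp4 in 49.0%, 76.2% and 67.2%. Igfbp4 stood at 289, 838 and 721 CPM and Lef1 at 749, 627 and 523, so the gene that let a cell in differed between the libraries. Many members lie at the edge of the rule: 46.7%, 60.4% and 61.9% had exactly 1 Cd4 UMI, and 15.6%, 17.0% and 27.5% exactly 1 UMI of Igfbp4 and Lef1 together. Just outside lay 595, 673 and 735 cells that met the other parts but held an excluded gene. In Control 70.3% of these held Cd79a or Cd79b, and in IR_HSO 58.4% held Foxp3.

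The entry genes also split the members. Cells with Lef1 and no Igfbp4 carried Ikzf2, which encodes the regulatory T cell factor Helios, at 139, 379 and 618 CPM in the 3 libraries. Cells with both genes carried it at 2.24, 47.2 and 76.5 CPM. The memory marker Cd44 stood at 65.2, 86.9 and 127 CPM in the first kind and at 20.7, 26.8 and 21.9 in the second. Cells with Igfbp4 and no Lef1, of which Control had 12, carried Ikzf2 at 0, 180 and 256 CPM and Cd44 at 0, 54.5 and 85.4. The members are thus a mixture, described here by the genes that let them in. Since cycling cells and Foxp3-negative cells with regulatory genes are not naive in the usual sense, the comparisons were also made without cells that held a UMI of such genes. The cells kept are called the stricter members. A cell was left out when it held a UMI of Il2ra, Ikzf2, Ctla4, Tnfrsf4, Mki67, Top2a, Birc5, Nusap1, Ccna2, Cdk1, Rrm2 or Stmn1. This choice was made after the data were seen. It kept 418 Control, 739 IR and 399 IR_HSO cells (61.6%, 42.4% and 38.8% of the members). Other regulatory genes were not used, and Tnfrsf18 still stood at 39.4, 162 and 189 CPM in the stricter members.

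Which library had the highest share of naive-like CD4 T cells depended on the denominator. In the Control library they made up 7.49% of all cells (95% exact Clopper-Pearson interval 6.95 to 8.05), in the IR library 13.6% (13 to 14.2) and 9.72% in IR_HSO (9.16 to 10.3). Of CD3-positive, Cd4-positive cells they made up 43.6% (41.1 to 46.1), 53% (51.3 to 54.7) and 33.1% (31.5 to 34.8). Among CD3-positive, Cd4-positive cells with none of the 7 excluded genes Control was highest, with 85.6% (83.0 to 88.0), 75.9% (74.1 to 77.7) and 61.9% (59.5 to 64.2). IR was thus highest for the first 2 denominators, while IR_HSO was lowest among CD4 cells counted either way. Because a deeper cell is more likely to show a UMI of an entry gene or of an excluded gene, each cell was also thinned to 1000 UMIs before the rule was applied. This left out 168, 1323 and 664 cells with fewer UMIs. The shares of CD3-positive, Cd4-positive cells were then 42.4% (37.6 to 47.3), 43.5% (40.5 to 46.5) and 25% (22.4 to 27.8). The gap between Control and IR among these cells was within counting error after thinning, and the lower share in IR_HSO was outside it. B cells, defined by at least 2 UMIs of Cd79a and Cd79b without CD3, numbered 3729, 236 and 168, so a share of all cells moves with the loss of B cells as well. Foxp3-positive T cells, which the rule leaves out, numbered 120, 772 and 1381. These shares leave out the 16.5% of IR_HSO barcodes over the mitochondrial limit, and under 5% mitochondrial UMIs the shares of all cells were 14.8% in IR and 10.6% in IR_HSO.

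**Figure D1:**
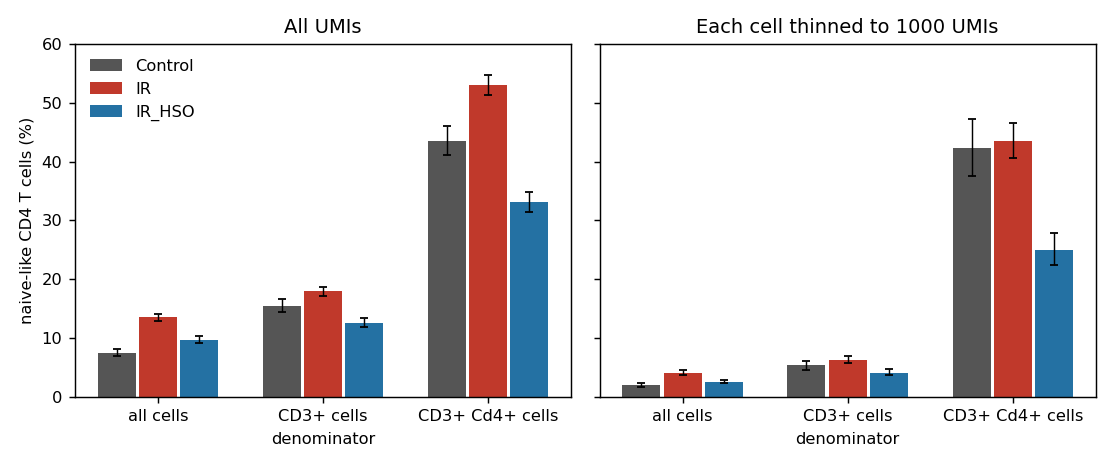
Naive-like CD4 T cells as a percent of all cells, of CD3-positive cells and of CD3-positive, Cd4-positive cells in the 3 libraries, with all UMIs (left) and after thinning each cell to 1000 UMIs (right). Bars give the percent and lines its 95% interval for counting error. IR_HSO is lowest among CD3-positive, Cd4-positive cells in both panels, at 33.1% and 25%.

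Between IR and Control most listed p53 target genes were higher in the IR members. The activity of p53 itself was not measured. A gene was called when its CPM differed at least 1.5-fold and reached 10 CPM in either library. A gene under 10 CPM in Control could thus be called higher but not lower. By this rule 15.1% of 8406 genes were higher in IR and 3.12% were lower, so 82.9% of the calls were higher. That share was 65.1% with median-of-ratios scaling, which moved the median of all genes by -0.16, and 68.5% without pancreatic, immunoglobulin, haemoglobin, mitochondrial and ribosomal genes, which moved it by -0.12. Of 30 listed p53 targets, 25 reached the level, 20 were higher, 1 was lower and 4 lay between. Their median log2 ratio (1 CPM added to both sides) was 1.72, against 0.17 over all genes tested.

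Cdkn1a, the gene of the cycle-arresting protein p21, stood at 1.43 CPM in Control, 227 in IR and 164 in IR_HSO. The Control level rests on 5 UMIs in 1 cell, while 719 cells in IR and 341 in IR_HSO carried the gene. IR was 159-fold above Control (67.9 to 490). Phlda3, an inhibitor of Akt signalling, stood at 0.571, 105 and 91.7 CPM. Psrc1, a spindle protein gene, stood at 0.286, 80.8 and 73.6 CPM. With 2 UMIs and 1 UMI in Control, their ratios of IR to Control were 185 (50.9 to 1527) and 283 (50.6 to 11189).

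The apoptosis genes among the targets were higher too. Bax, whose product opens the mitochondrial outer membrane, stood at 103, 523 and 435 CPM in Control, IR and IR_HSO. Bbc3 (PUMA) stood at 20.3, 112 and 113 CPM and the death receptor Fas at 17.99, 67.9 and 65.1. Apaf1, the scaffold of the apoptosome, stood at 17.99, 42.7 and 54.4. In each of these the irradiated libraries lay 2.37-fold to 5.58-fold above Control and near each other.

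Targets that act in feedback and repair differed more among themselves. Zmat3, an RNA-binding protein gene, stood at 11.7, 115 and 122 CPM, and Ccng1 (cyclin G1) at 59.98, 195 and 183. Mdm2, the ubiquitin ligase that degrades p53, stood at 42.6, 83.1 and 93.7 CPM. The repair gene Xpc lay between, at 33.1, 30.3 and 31.9 CPM, as did Btg2, at 565, 652 and 484. Sesn1, a stress sensor that p53 and FOXO factors both control, was the target that was lower in IR, at 63.4, 35.6 and 61.0 CPM, whereas its relative Sesn2 stood at 1.999, 16.9 and 13.1.

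IR_HSO showed the same targets at like levels. Against Control, 22.5% of 8669 genes were higher and 4.78% were lower (82.5% of calls higher, or 56.3% with median-of-ratios scaling, which moved the median of all genes by -0.25), and of the p53 targets 21 of 25 were higher and 0 lower, with a median of 1.80. Both comparisons share the Control library. Against IR, 8.92% of 8737 genes were higher in IR_HSO and 5.92% were lower. The share of calls higher was 60.1%, or 42.9% with median-of-ratios scaling and 71.9% without the pancreatic, immunoglobulin, haemoglobin, mitochondrial and ribosomal genes. Of the p53 targets 1 was higher (Sesn1, 1.71-fold, 1.44 to 2.04), 0 were lower and 24 lay between, with a median of -0.0024. Cdkn1a was 0.723 of its IR level (0.661 to 0.791) and Bax 0.831 (0.786 to 0.879), inside the 1.5-fold band but outside counting error.

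**Figure D2:**
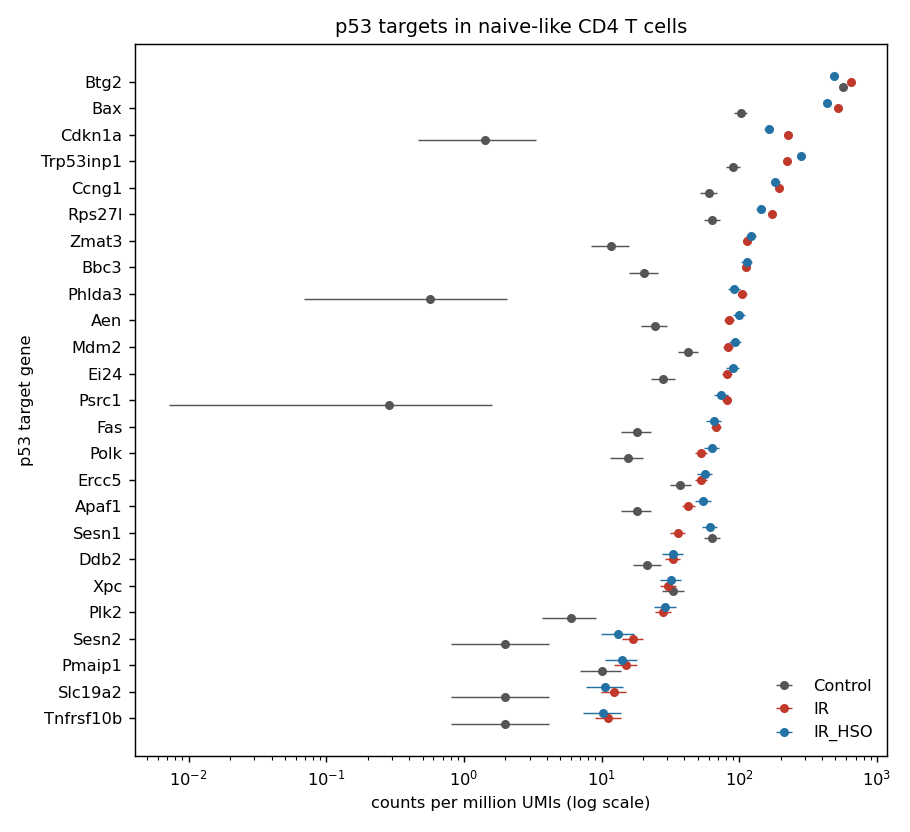
Levels of the 25 p53 targets that reached 10 CPM, in CPM on a log scale, in naive-like CD4 T cells of the 3 libraries. Points give the CPM and lines its exact Poisson 95% interval. IR and IR_HSO lie close together and right of Control for most genes, with Cdkn1a at 1.43, 227 and 164 CPM.

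The p53 list was also counted cell by cell. After thinning to 1000 UMIs, 15.0% of members in Control had at least 3 UMIs of the p53 list, against 54.7% in IR (52.3 to 57.1) and 51.5% in IR_HSO (48.4 to 54.6). Without thinning the shares were 85.9%, 95.8% and 94.8%. The 5% of members with the most p53 list UMIs held 14.1%, 15.1% and 15.6% of them. At 5 UMIs the thinned shares were 1.77%, 27.6% and 22.5%. The irradiated libraries lay above Control at both counts.

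Promoter sequences show where p53 elements lie in some of these genes. p53 binds as a tetramer to a pair of 10-base elements, and the promoters of RefSeq (build GRCm38.p6, 250 bases before to 50 after the start of the gene) were searched for the p53 decamer consensus, which reads the same on both strands. The files' own build is GRCm39, so these coordinates are given for the sequences only. Of the 30 targets 23 matched a promoter by symbol. An exact decamer stood in 9 of them (39.1%), against 9.55% of 27025 symbols. A pair at most 13 bases apart, with at most 2 mismatches over both and the central C and G kept, stood in 5 (21.7%), against 4.71%. Among the 16 matched targets called higher in IR, 8 held the decamer and 4 the pair. The windows of these 4 are shown 5′ to 3′ on the gene's strand, with the pair of fewest mismatches in capitals and 25 bases on either side:
Bax: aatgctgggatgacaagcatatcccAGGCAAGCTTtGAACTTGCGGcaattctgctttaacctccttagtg
Ccng1: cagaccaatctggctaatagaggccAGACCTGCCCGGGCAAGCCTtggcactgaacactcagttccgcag
Cdkn1a: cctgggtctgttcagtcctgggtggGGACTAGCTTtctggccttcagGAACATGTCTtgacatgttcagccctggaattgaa
Rps27l: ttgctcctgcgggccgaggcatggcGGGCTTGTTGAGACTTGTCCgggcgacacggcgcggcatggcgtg

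The Bax window lies at chr7:45467054-45467124 on the minus strand and the Ccng1 window at chr11:40755437-40755506 on the minus strand. The Cdkn1a window lies at chr17:29090881-29090962 on the plus strand, before one of the starts that RefSeq lists for the gene. The Rps27l window lies at chr9:66946271-66946340 on the plus strand. Mismatches numbered 2, 1, 0 and 1, and the spacers were 1, 0, 12 and 0 bases. In the Cdkn1a window the lower-case bases directly after the second capital element also form a pair with it. That pair has 1 mismatch and a spacer of 0, so the capitals do not mark the only pair there. Rps27l, a ribosomal protein-like p53 target, stood at 63.7, 173 and 143 CPM in Control, IR and IR_HSO. A match describes the letters and does not show binding, and promoters without one say only that the pair is not in this window.

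Genes outside the lists that stood furthest above Control were also found in many cells. Drc1, a gene of the ciliary dynein regulatory complex, stood at 1.43, 72.8 and 52.0 CPM in Control, IR and IR_HSO. Cox6b2, a testis-type subunit of cytochrome c oxidase, stood at 0.571, 67.8 and 84.5 CPM, and Neb, which encodes the muscle protein nebulin, at 3.999, 124 and 295. Tnfsf4, the OX40 ligand, had no UMI in Control and stood at 34.9 and 41.4 CPM, which is at least 40.8-fold and 48.3-fold above a floor of 3 counts. The neuronal dynamin Dnm3 likewise had none in Control and stood at 23.9 and 20.8 CPM. These 5 genes lay in 152 to 533 cells of IR, and their 3 top cells held at most 5.49% of the UMIs. CD8 T cells of the same libraries showed them too, with ratios of IR to Control of 14.3 for Drc1, 92.2 for Cox6b2 and 49.7 for Tnfsf4.

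In other genes with large folds a few cells held much of the total. Mt1 and Mt2, metallothioneins that bind zinc and copper, stood at 104 and 54.0 CPM in IR and at 1.14 and 0 in Control. The 3 top cells held 79.1% of the Mt1 UMIs and 87.8% of the Mt2 UMIs. Lcn2, a granulocyte protein gene, stood at 1.43, 25.7 and 0.726 CPM with 90.8% of its IR UMIs in 3 cells. Dcn, a proteoglycan of stromal cells, stood at 0, 69.9 and 15.2 CPM with 54.5% in 3 cells. Sostdc1 stood at 0, 1.31 and 21.1 CPM and lay in 16 cells of IR_HSO. Dcn was found in 220 IR cells and Mt1 in 129, and without the 3 top cells they still stood at 31.8 and 21.7 CPM in IR. In IR_HSO Mt1 stood at 15.0 CPM, and the 3 top cells held 9.52% of the Dcn UMIs and 12.9% of the Mt1 UMIs. Without the 3 top cells Mt2 stood at 6.57 CPM and Lcn2 at 2.36 in IR.

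Genes lower in both irradiated libraries included surface proteins and transporters. Slc28a2b, a nucleoside transporter gene, stood at 32.6, 2.23 and 2.66 CPM, so Control was 14.6-fold above IR (8.72 to 25.9). St8sia6, a sialyltransferase, stood at 58.3, 10.8 and 13.1 CPM. Ly6c1, a surface protein of part of the naive CD4 T cells, stood at 97.7, 33.1 and 32.2, and Actn1 (alpha-actinin) at 241, 119 and 85.2. In CD8 T cells Actn1 was lower as well (0.449 of Control in IR), whereas Ly6c1 was 3.47-fold higher. The cytoskeletal gene Rflnb stood at 159, 63.2 and 48.9 CPM, and the B cell and lymphocyte surface gene Ly6d, at 36.3, 4.20 and 3.87, had 46.5% of its Control UMIs in 3 cells and was 0.818 of Control in IR after thinning.

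Among the members most naive genes stayed inside the 1.5-fold band of Control, while their median lay below that of all genes. A member had to hold Igfbp4 or Lef1, so cells that lost these naive genes fell outside and the result was partly set by the rule. Of 20 naive T cell genes 0 were higher in IR than Control, 2 were lower (Actn1 and Il6st, the second at 0.737 of Control in the stricter members) and 18 stayed inside the band. The median log2 ratio was -0.09 for IR and -0.09 for IR_HSO against Control. Over all genes it was 0.17 and 0.22, and 15.1% and 22.5% were higher. In the stricter members the naive medians were 0.05 and 0.29, against 0.17 and 0.24 over all genes. Tcf7 stood at 580, 438 and 546 CPM in Control, IR and IR_HSO. Satb1, a chromatin organizer of T cells, stood at 656, 610 and 617. Klf2, a factor that drives S1pr1, stood at 1019, 1180 and 854. Il6st, the shared signalling chain of the interleukin-6 family, stood at 81.1, 46.8 and 59.0. Of 25 genes of the T cell receptor complex and its signalling 0 were higher and 0 lower in IR. In IR_HSO against Control 2 were higher (Zap70 and Ctla4) and 3 lower. Over all genes 15.1% were higher and 3.12% lower in IR, and 22.5% and 4.78% in IR_HSO. The kinase gene Lck was lower, at 601, 513 and 353 CPM, as were Cd5 at 363, 273 and 208 and Thy1 at 326, 239 and 191.

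Memory and effector genes were higher on most counts. Of 28 measured in IR against Control 19 were higher and 1 was lower, with a median of 0.89, and of 29 in IR_HSO against Control 21 were higher and 1 was lower, with a median of 0.96. Over all genes 15.1% and 22.5% were higher, with medians of 0.17 and 0.22. The stricter members gave 16 of 27 higher for IR and 13 of 27 for IR_HSO, and S100a4 was then 1.08 and 0.705 of Control. Over all genes of the stricter members 1303 of 8257 and 2326 of 8640 were higher. The memory medians there were 0.90 and 0.58, against 0.17 and 0.24 over all genes. Il2rb, the interleukin-2 and interleukin-15 receptor beta chain, stood at 35.7, 283 and 505 CPM. Id2, a regulator of effector and innate lymphocytes, stood at 95.1, 281 and 294, and Ly6a (Sca-1) at 136, 238 and 378. The classical memory marker Cd44 differed little between Control and IR, at 41.4, 41.2 and 62.0 CPM. Itgb1 did the same, at 101, 103 and 153.

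Part of this list is made of cytotoxic genes that NK cells express strongly. In IR all 14 genes of an NK and cytotoxic list passed the 1.5-fold band above Control, and its summed level was 350, 2556 and 2036 CPM in the 3 libraries. Ncr1, Klrb1c, Klre1, Klra4, Klra8, Gzmb and Xcl1 stood at 2.29 to 6.28 CPM in Control. Being under 10 CPM there, they entered through IR and could not come out lower. Gzma (granzyme A) stood at 23.1, 587 and 420 CPM in the members and at 10753, 10826 and 7918 in NK cells. NK cells, defined by at least 2 UMIs of Ncr1 and Klrb1c without CD3 or Cd79, numbered 232, 1406 and 1089. A set of 10 of the 14 genes stood at 0.215% to 2.30% of their NK cell level in Control members, at 5.36% to 8.47% in IR and at 4.52% to 7.26% in IR_HSO. The others, Nkg7, Ccl5, Klrd1 and Xcl1, stood at 1.28%, 1.12%, 2.10% and 0.936% in Control. They stood at 9.05%, 7.40%, 7.01% and 8.57% in IR and at 10.8%, 7.58%, 8.17% and 6.45% in IR_HSO. Gzma was also seen in B cells, at 117, 205 and 185 CPM. Immunoglobulin genes took 4.08%, 60.6% and 56.6% of the UMIs of these B cells, which leaves fewer UMIs for other genes. Their levels and thinned shares in the irradiated libraries are therefore not like for like with those of T cells. After thinning, a Gzma UMI was found in 21.0% of IR members (19.1 to 23) and 12.4% of IR B cells (8.46 to 17.3). In IR_HSO it was found in 10.4% of members and 10.2% of B cells. Without thinning the IR shares were 49.3% and 49.2%. Il2rb and Id2 stood higher against NK cells, at 24.0% and 21.5% of the NK level in IR and 37.8% and 22.9% in IR_HSO. The part of NK cell RNA in the memory genes was not tested.

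Cell death genes differed gene by gene. Bcl2, the survival protein that holds Bax in check, stood at 215, 1428 and 1775 CPM, 6.64-fold above Control in IR (6.17 to 7.16). Bcl2l11 (BIM), its main opponent in lymphocytes, stood at 59.7, 124 and 194, and was 1.56-fold higher in IR_HSO than IR (1.42 to 1.72), though 1.35-fold after thinning, 1.47-fold with median-of-ratios scaling and 1.42-fold with equal weight per cell. Mcl1 stood at 408, 556 and 460 and lay between in each comparison. Of 13 pro-apoptotic genes measured 7 were higher in IR and 0 lower, with a median of 1.02. Of 10 anti-apoptotic genes 3 were higher and 0 lower, and their median of 0.16 was near the 0.17 of all genes, of which 15.1% were higher. Bcl2 also stood far above Control in CD8 T cells, at 280, 1319 and 1698 CPM.

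Proliferation genes were highest in IR and sat in few cells. All 21 of the measured list were higher in IR than Control, with a median of 2.47. Over all genes 15.1% were higher, with a median of 0.17. Some of the 21 entered only through IR and could not come out lower, since 16 reached the level in IR_HSO against Control. In IR_HSO against Control 12 of 16 were higher, with a median of 0.95, and in IR_HSO against IR 17 of 21 were lower and 0 higher, with a median of -1.02. Mki67 stood at 11.4, 214 and 81.6 CPM and Top2a at 15.7, 245 and 81.8. Stmn1 stood at 54.6, 307 and 115. After thinning, 0.589% of members in Control, 8.32% in IR and 2.75% in IR_HSO had at least 5 proliferation UMIs. Without thinning, where Control cells are deepest, these were 42.4%, 37.9% and 23.9%. The 5% of members with the most held 17.8%, 58.4% and 50.7% of all proliferation UMIs.

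**Figure D3:**
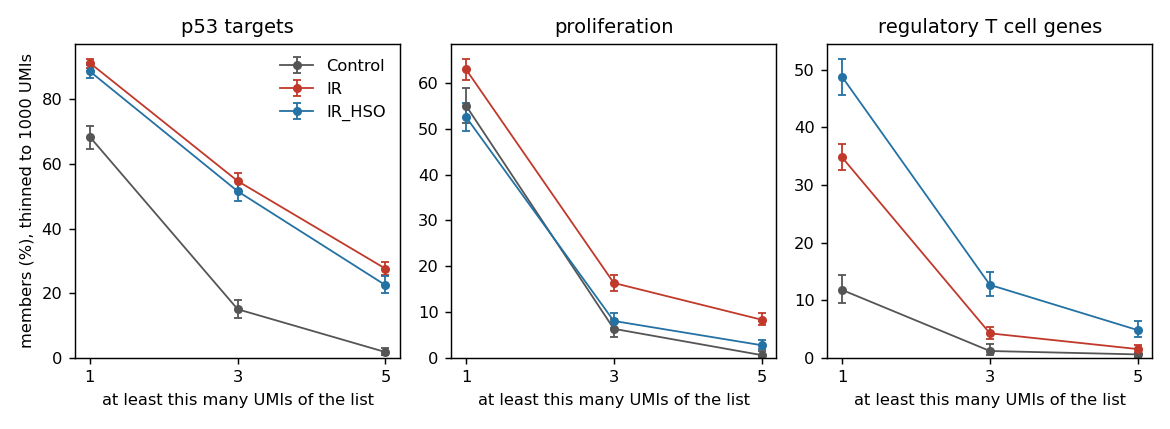
Percent of naive-like CD4 T cells with at least 1, 3 or 5 UMIs of the p53 targets, the proliferation genes or 8 regulatory T cell genes, each cell thinned to 1000 UMIs. Lines on the points give the 95% interval for counting error. The p53 curves of IR and IR_HSO lie together above Control (54.7% and 51.5% against 15.0% at 3 UMIs), the proliferation curve is highest in IR, and the regulatory curve is highest in IR_HSO.

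In the stricter members the p53 median was 1.86 for IR and 1.86 for IR_HSO against Control. Cdkn1a stood at 0, 279 and 219 CPM and Bax at 103, 588 and 535. The proliferation median, over the genes that the choice did not remove, was 0.45 for IR and 0.32 for IR_HSO against Control. These rest on 11 and 10 genes, and since cells were left out by their cycle genes, a lower median was fixed by the choice.

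Heat shock chaperones, which keep other proteins folded, were lower in IR_HSO than in IR. Of 20 genes of heat shock and protein folding 13 were lower in IR_HSO than IR and 0 were higher, with a median of -0.86 against 0.04 over all genes. Of all genes 5.92% were lower and 8.92% higher. IR itself lay near Control, with 3 of 20 higher, 0 lower and a median of 0.12. Hsph1 (HSP110) stood at 163, 157 and 37.3 CPM in Control, IR and IR_HSO, so IR was 4.22-fold above IR_HSO (3.56 to 5.02). Hspa8, the constitutive HSC70, stood at 1082, 1049 and 476, and Hsp90ab1 at 3067, 2942 and 1357. The stress-inducible Hspa1a stood at 226, 185 and 67.5. Control and IR thus lay together and IR_HSO apart from both.

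The stricter members gave Hsph1 at 164, 160 and 36.7 CPM and 14 of 20 genes lower in IR_HSO than IR. NK cells showed the same order, with Hsph1 at 134, 147 and 34.4 CPM, 15 of 20 genes lower and a median of -0.87. CD8 T cells had 11 of 20 lower and a median of -0.62, so the lower chaperone level was found across these cell sets and was not tested for a difference between them. Hspa5 (BiP), a chaperone of the endoplasmic reticulum, lay inside the 1.5-fold band at 359, 393 and 289 CPM. The immediate-early genes Jun, at 872, 891 and 429, and Fos, at 294, 393 and 183 (0.858 of Control in the stricter IR_HSO members), were also lower in IR_HSO than IR, and Cd69, an early activation receptor that also retains T cells in tissue, stood at 662, 538 and 318.

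A few genes that glucocorticoids induce were highest in IR_HSO. Fkbp5, a chaperone of the glucocorticoid receptor and one of its standard targets, stood at 30.3 CPM in Control, 111 in IR and 237 in IR_HSO, 2.13-fold higher in IR_HSO than IR (1.94 to 2.34). Klf9 stood at 4.86, 38.0 and 93.7 CPM and the clock gene Per1 at 18.9, 20.6 and 46.7. Txnip, which limits glucose uptake, stood at 456, 639 and 924. Tsc22d3 (GILZ), another standard glucocorticoid target, differed little, at 315, 333 and 340. Of 16 genes of the glucocorticoid and FOXO list 6 were higher and 0 lower in IR than Control, 9 were higher and 1 lower in IR_HSO than Control, and 4 were higher and 0 lower in IR_HSO than IR. Over all genes 15.1%, 22.5% and 8.92% were higher in these comparisons. The list median of IR_HSO against IR was 0.14 against 0.04 over all genes, so the difference lay in a few members of the list.

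Fkbp5 in the stricter members stood at 27.4, 116 and 257 CPM, and Klf9 at 5.28, 41.8 and 119. CD8 T cells showed Fkbp5 at 23.8, 102 and 216 CPM, and NK cells at 64.9, 156 and 207. Control was lowest and IR_HSO highest in each of these sets.

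Cytokine receptors and their signalling genes were higher in IR_HSO than IR in 8 of 27 and lower in 0, with a median of 0.42. Over all genes 8.92% were higher and 5.92% lower, with a median of 0.04. In the stricter members 4 of 26 were higher and 1 lower, with a median of 0.38. Over all genes 1172 of 8656 were then higher, with a median of 0.07. The calls in the stricter members were thus near the share over all genes, while the median stayed above it. Il7r, the receptor chain for the naive survival factor interleukin-7, stood at 518, 657 and 1024 CPM (1.56-fold above IR in IR_HSO, 1.47-fold with median-of-ratios scaling and 1.38-fold with equal weight per cell), and Il4ra at 72.5, 101 and 135. Ifngr1 stood at 62.3, 141 and 210. Feedback genes that STAT5 and STAT3 induce were higher in both irradiated libraries: Cish stood at 15.4, 121 and 180, Socs1 at 25.7, 121 and 129, and Socs3 at 34.6, 133 and 153. Il2rg, the shared gamma chain, lay between at 315, 283 and 272.

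**Figure D4:**
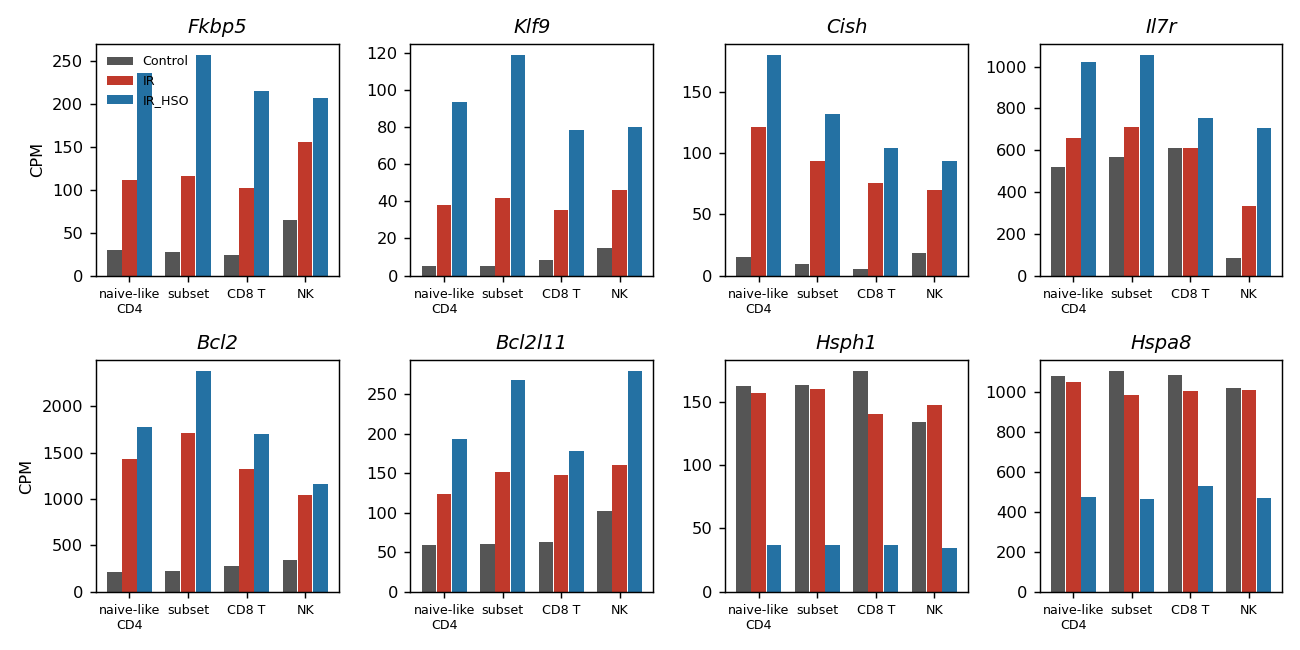
Levels of 8 genes in CPM in naive-like CD4 T cells, in the stricter members among them (subset), in CD8 T cells and in NK cells of the 3 libraries. Hsph1 and Hspa8 are lowest in IR_HSO in each set, and Fkbp5, Klf9, Cish, Bcl2 and Bcl2l11 are highest in IR_HSO in each set.

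Several large differences between IR_HSO and IR were alike in unrelated cells. Gstp1, a glutathione transferase, stood at 49.99, 43.7 and 213 CPM, with ratios of 4.87 in the members, 3.72 in CD8 T cells and 3.61 in NK cells. Wdr89 stood at 177, 95.2 and 352 CPM, with ratios of 3.70 in the members, 3.65 in CD8 T cells, 4.04 in NK cells and 4.84 in B cells. Lars2, a mitochondrial leucyl-tRNA synthetase, stood at 545, 222 and 673, and the ATP synthase gene Atp5l at 135, 97.2 and 270. Tuba1b (alpha-tubulin) went the other way, at 99.1, 232 and 57.1 CPM (IR at 0.949 of Control in the stricter members), and was 0.246 of the IR level in the members, 0.337 in CD8 T cells and 0.350 in NK cells. For Wdr89, Lars2 and Atp5l the IR library lay below Control and IR_HSO above it.

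Genes of lipid handling, of interest since HSO is an oil, showed no common direction between IR_HSO and IR. Over all genes 8.92% were higher and 5.92% lower in IR_HSO than IR. Of 13 genes of fatty acid oxidation and PPAR targets 0 were higher and 0 lower in IR_HSO than IR. Cpt1a, the rate-limiting enzyme of mitochondrial fatty acid uptake, stood at 13.1 CPM in Control, 28.0 in IR and 34.4 in IR_HSO. Of 17 genes of fatty acid and sterol synthesis 2 were higher (Abca1 and Srebf1) and 2 lower, among them Idi1. Abca1, a cholesterol exporter, stood at 1.999, 14.4 and 31.7 CPM, and Srebf1 at 14.6, 16.2 and 27.6. Of 21 oxidative phosphorylation genes 0 were higher in IR_HSO than IR and 2 were lower, and of 14 antioxidant genes 1 was higher (Gclc, at 27.1, 25.1 and 39.4) and 0 lower.

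Interferon response genes were moderately higher after irradiation. Of 36 measured 17 were higher in IR than Control and 1 was lower, with a median of 0.48, and 22 of 37 were higher in IR_HSO than Control and 0 lower, with a median of 0.64. Over all genes 15.1% and 22.5% were higher, with medians of 0.17 and 0.22. Ifit3 stood at 5.43, 39.5 and 72.6 CPM, Isg15 at 32.0, 111 and 121, and the antiviral GTPase gene Mx1 at 1.71, 19.3 and 31.9. Of 15 genes of class I presentation 4 were higher in IR_HSO than Control and 2 higher than IR, with medians of 0.19 and -0.07 against 0.22 and 0.04 over all genes, so the list as a whole lay near the background. Its member H2-Q6 stood at 62.8, 124 and 228 CPM and Tap1, a peptide transporter, at 97.97, 127 and 180.

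Genes of regulatory T cells were highest in IR_HSO although Foxp3 was at 0 by the rule. Of 9 measured 7 were higher in IR than Control and 0 lower, and of 10 measured 7 were higher in IR_HSO than IR and 0 lower, with a median of 0.91. Over all genes 15.1% were higher in IR than Control. In IR_HSO against IR 8.92% of all genes were higher, with a median of 0.04. Ikzf2 stood at 66.8, 126 and 268 CPM. Ctla4, an inhibitory receptor, stood at 32.0, 43.7 and 116, and Il2ra (CD25) at 6.86, 47.7 and 70.2. Nrp1 stood at 16.9, 24.8 and 58.8. In Foxp3-positive cells Ikzf2 stood at 1126, 1346 and 1461 CPM. After thinning, an Ikzf2 UMI was found in 4.12% of members in Control (2.76 to 5.90), 8.09% in IR (6.84 to 9.48) and 15.7% in IR_HSO (13.5 to 18.1), against an unthinned 8.25%, 16.3% and 29.8%. The thinned shares compare with 2.22%, 4.75% and 6.36% in NK cells and 0.242%, 0% and 2.99% in B cells. The 0 of 234 B cells in IR has an upper 95% bound of 1.56%. Median depths were 3883, 2994 and 3649 UMIs in NK cells and 3676, 7626 and 8736 in B cells. Immunoglobulin genes took 60.6% and 56.6% of the B cell UMIs in IR and IR_HSO, so those B cell shares are not like for like with the members. The part of regulatory T cells whose Foxp3 was not captured was not tested.

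**Figure D5:**
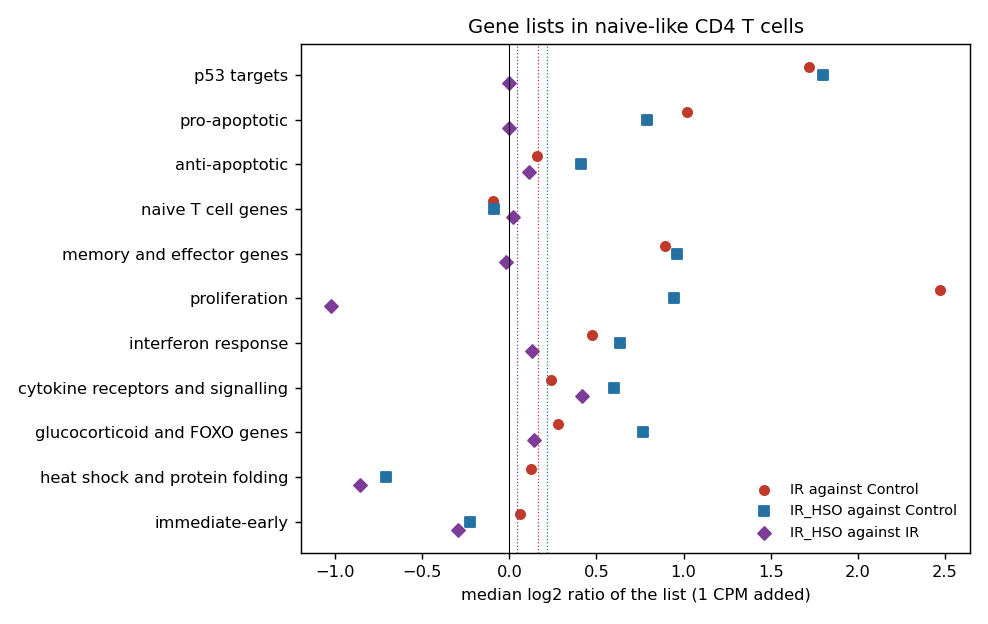
Median log2 ratio of 11 gene lists in naive-like CD4 T cells for IR against Control, IR_HSO against Control and IR_HSO against IR, with 1 CPM added to both sides. Dotted lines give the median over all genes in the same comparison (0.17, 0.22 and 0.04). p53 targets lie far right against Control (1.72 and 1.80) and at no difference between the irradiated libraries, and proliferation and heat shock lie left in IR_HSO against IR (-1.02 and -0.86).

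Other T cells of the same libraries showed where the members stood. The p53 median of IR against Control was 1.72 in the members, 1.23 in CD4 cells without Igfbp4 or Lef1, 1.47 in CD8 T cells, 0.74 in Foxp3-positive T cells and 0.68 in NK cells. Cdkn1a in IR reached 227, 187, 183, 193 and 193 CPM in these sets, so its level was close while the list median was highest in the members. The proliferation median was 2.47, -0.53, 2.06, 0.97 and 0.80. The other CD4 cells had few Control cells, 114, and their proliferation genes were already high there. A list of B cell genes was also high in them, at 7659 CPM against 1083 in the Control members. These differences between cell sets have no test with 1 library per group.

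T cell receptor beta variable genes gave a further view of the members, though 26.1%, 19.3% and 21.1% of members had any such UMI. Trbv2 led in each library, with 17.4% of 224 UMIs in Control (12.7 to 23.02), 17.7% of 419 in IR (14.1 to 21.7) and 15.6% of 262 in IR_HSO (11.5 to 20.6). Trbv13-2 took 12.1% (8.10 to 17.1), 10.3% (7.53 to 13.6) and 5.73% (3.24 to 9.27), and Trbv19 took 6.70% (3.80 to 10.8), 5.97% (3.90 to 8.68) and 11.5% (7.86 to 15.9). Trbv3 took 9.82% (6.26 to 14.5), 10.02% (7.32 to 13.3) and 4.20% (2.11 to 7.39). IR_HSO was lowest for Trbv13-2 and Trbv3 and highest for Trbv19, and with 1 library per group these differences in use were not tested.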

How the data were processed

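Per the file headers the authors made the deposited counts with Cell Ranger 7.0.1, as raw UMI counts per gene and cell barcode. Per the submitters' processing notes the build was GRCm39; the annotation and alignment settings are not given in the sources used here. The members, gene lists and comparisons were chosen with earlier results of these data known. UMIs were summed over the members of a library and scaled to CPM, ratios carry exact conditional 95% intervals, and list ratios added 1 CPM. Genes were named by rule: at least 20 CPM in either library, the 12 highest and 12 lowest per comparison by the interval limit nearest to no difference, without mitochondrial, ribosomal, receptor segment, haemoglobin and predicted genes or genes of the 10 lists of other cells, plus the furthest and best known list members. Levels are compared between libraries for a gene, not between genes, since they are not scaled by length. Doublets stayed in. A simulated doublet score would remove 5 of 679, 207 of 1742 and 100 of 1029 members (closing section). Thinning drew 1000 UMIs per cell at random with a fixed seed, and 23 IR and 10 IR_HSO members below that depth were left out of thinned shares. The ratio intervals were checked on simulated Poisson counts, the model they assume. That check does not cover genes whose UMIs gather in a few cells. Tools were Python 3.11.15, numpy 2.4.6, scipy 1.17.1, pandas 2.3.3 and scikit-learn 1.9.0. Some genes are not reported here.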

Additional observations from a re-analysis of the deposited data

Results flagged for a closer look

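The proliferation genes stood out because naive-like CD4 T cells and CD4 T cells without Igfbp4 or Lef1 lay on opposite sides of no difference for IR_HSO against Control. The median log2 ratio was 0.95 in the naive-like cells (12 of 16 measured genes higher, 0 lower) and -0.77 in the other CD4 cells (0 of 21 higher, 12 lower). Each group has 1 library, so the difference was not tested. In Control the other CD4 cells numbered 114. A list of B cell genes summed to 7659 CPM in them, against 1083 in the Control members. In the other CD4 cells of IR and IR_HSO it summed to 1080 and 1517.5 CPM. The part of B cell RNA in their proliferation genes was not tested.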

How the results depend on the processing

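No paired analysis was possible because each group has 1 library, and for the same reason no library could be left out. The p53 median stayed between 1.47 and 1.86 for IR against Control and between -0.09 and 0.05 for IR_HSO against IR under the 11 alternatives, and the heat shock median for IR_HSO against IR between -0.94 and -0.81. Where a value below moved, the cause was not tested unless fewer cells or genes made it so.

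With the rule applied after thinning, members were 1.9996%, 4.12% and 2.58% of cells in Control, IR and IR_HSO. Genes past the fold then numbered 1983 higher and 523 lower for IR against Control, 696 lower for IR_HSO against Control, and 1264 higher and 1005 lower for IR_HSO against IR. Asking for Lef1 gave shares of 12.2% in IR and 8.55% in IR_HSO, and under 5% mitochondrial UMIs gave 14.8% and 10.6%. Median-of-ratios scaling gave 480 lower genes for IR against Control and 1132 higher and 877 lower for IR_HSO against Control. It gave heat shock medians of -0.031 for IR and -0.95 for IR_HSO and a p53 median of 1.41 for IR_HSO, each against Control. Without pancreatic, immunoglobulin, haemoglobin, mitochondrial and ribosomal genes, 511 genes were lower for IR against Control, the heat shock median there was 0.0016, and 1173 genes were higher for IR_HSO against IR. With equal weight per cell the proliferation medians against Control were 1.76 for IR and 0.55 for IR_HSO, and the heat shock median for IR_HSO was -0.85. With no filter on low values the counts higher and lower were 7853 and 3438, 8116 and 3300, and 5798 and 5324 in the 3 comparisons. With at least 50 CPM they were 360 and 81, 479 and 168, and 186 and 183, with proliferation medians against Control of 1.60 for IR and 0.53 for IR_HSO.

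Another alternative was chosen after seeing the data. This was the choice of the stricter members, with shares of 4.61%, 5.75% and 3.77%. The proliferation medians were 0.45 for IR against Control, 0.32 for IR_HSO against Control and -0.18 for IR_HSO against IR. The heat shock median for IR against Control was -0.044, and 1172 genes were higher for IR_HSO against IR.

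Ratios of 9 genes changed direction. After thinning, Lcn2 was 0.496 for IR against Control, and Mx1 0.858, Ifit1 0.969 and Mt2 1.49 for IR_HSO against IR. In the stricter members, H2ax was 0.832 and Tuba1b 0.949 for IR against Control. S100a4 was 0.705 and H2ac24 0.886 for IR_HSO against Control, and Gpm6b 0.705 for IR_HSO against IR. Of the other gene ratios 2667 stayed inside their counting interval and 496 moved out of it. Past the fold stayed 207 of 234 ratios in the stricter members, 245 of 259 after thinning, 256 of 269 with median-of-ratios scaling and 266 of 269 after doublet removal.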
